A study of Mus musculus with 6 samples.

Results

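The 8 genes Mad2l2, Adam12, Rhbdd2, Ipo11, Cers4, Wdr48, Trio, and Elavl3 each carried 1 m5C site that the study held at high confidence and that rose mainly at 6 h or fell after KCl. They were chosen by these measured levels. The site in Mad2l2, Adam12, Rhbdd2, and Ipo11 was highest at 6 h, and the site in Cers4, Wdr48, Trio, and Elavl3 was highest at 0 h. All cytosines of these genes that the deposited lists held were then taken, which gave 6787 cytosines in at least 1 library, out of 5240657 in the whole series. Between 2051 and 3125 of them were listed in a single library.

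RNA bisulfite sequencing (RNA BS-seq) had been applied to poly(A) RNA of primary cultures of cortical neurons of wild-type C57BL/6 embryos at E16.5, both sexes pooled. All cultures, those at 0 h included, had been silenced overnight with tetrodotoxin and DL-AP5, which block sodium channels and NMDA receptors. KCl at 55 mM was then given to depolarize them, and RNA was taken at 0 h, 2 h, or 6 h, with 2 replicates at each time point and 6 libraries in all. The sources used here call the replicates biological and do not say whether they came from separate litters or culture days, so that all spreads are those between these libraries.

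5-methylcytosine carries a methyl group on the fifth carbon of the base. NSUN2 and NSUN6 are among the methyltransferases known to place it, and ALYREF and YBX1 among the proteins known to bind it. Bisulfite turns unmethylated cytosines into uracil, which is read as T, whereas m5C is still read as C. The methylation level of a site is thus the share of reads with C among reads with C or T. A listing needed at least 10 reads and at least 1 unconverted read, so an unlisted cytosine was either shallow or fully converted, and these cases cannot be told apart.

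Sequence context was printed for the picked sites because the level of each rests on a single base. Each is 21 nt of GRCm38, 5′ to 3′ on the transcribed strand, with the picked cytosine in capitals. All 8 matched the genome.
Mad2l2, chr4:148140295-148140315, + strand: ggagaaaacaCagcgatcata
Adam12, chr7:133884818-133884838, − strand: cagccacttgCagctctttcc
Rhbdd2, chr5:135643255-135643275, + strand: agggacctccCagggggtaca
Ipo11, chr13:106936771-106936791, − strand: gcgggccgggCggttccggac
Cers4, chr8:4493476-4493496, + strand: ggctctgtagCgaggagtttc
Wdr48, chr9:119925417-119925437, + strand: cgtggacctgCaggctgccac
Trio, chr15:28025642-28025662, − strand: gcgcgctcctCgggccgagcc
Elavl3, chr9:22016340-22016360, − strand: gagcgtccaaCtctctctccc

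Of the picked sites, 4 lay in a 5′ UTR, all of these in the first exon. The Mad2l2 site was 490 bases before the start of the coding sequence (CDS), that of Trio 156, that of Cers4 106, and that of Ipo11 28. The Wdr48 site lay 626 bases after the end of the CDS, the Elavl3 site 2156 and the Adam12 site 3117, all in the 3′ UTR of the last exon. The distances are along 1 protein-coding GENCODE M21 transcript per gene. Each site lay in only some transcripts of its gene, from 1 of 15 in Trio to 7 of 9 in Cers4. The Cers4 site was in the 5′ UTR of 2 transcripts and in a non-coding exon of 5, and the Ipo11 site in 1 of each. The Rhbdd2 site was coding in 1 transcript, in the 3′ UTR of another, and in a non-coding exon of 1 more. A C followed by any base and then GGG, a G-rich 3′ context, was searched on the transcribed strand only, and 1 of the 8 contexts held it (Rhbdd2, 12.5%). The share was 14.3% of 974 nuclear positions that passed the standard filter and 1.90% of all listed cytosines. Median GC content was 64.3% over the 8 contexts, against 61.9% over those nuclear positions. The pairing probability that RNAfold gave the picked cytosine at 70 °C ran from 0.05 in Mad2l2 to 0.585 in Wdr48.

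The libraries listed 1559828 to 2374392 cytosines with a median coverage of 324 to 480 reads. The unconverted share over deeply covered cytosines of low level was 0.0837% to 0.0869% in the other libraries and 0.115% in 6 h replicate 1. All 7 neuronal markers were listed in each library. Among markers of other cells, Mog, Csf1r, C1qa, and Cldn5 were listed in no library, whereas the astrocyte genes Slc1a3 and Aldh1l1 were listed in all of them, at median coverages of 2059 to 3098.5 and 597 to 1125 reads. Listing says that reads covered a gene and does not measure the share of a cell type.

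Mad2l2, also known as Rev7, is a subunit of DNA polymerase zeta and of the shieldin complex, which acts in DNA break repair. Its picked site had 2 methylated of 33 reads and 4 of 28 at 0 h. At 2 h it had 4 of 42 and 2 of 24. At 6 h it had 14 of 27 and 10 of 22. The levels were thus 6.06% and 14.3% at 0 h, 9.52% and 8.33% after 2 h of KCl, and 51.9% and 45.5% after 6 h, with both 6 h libraries above all others. The mean was 10.2% ± 5.82 at 0 h, 8.93% ± 0.84 after 2 h of KCl, and 48.7% ± 4.52 after 6 h (SD, n = 2). Coverage was low, and the 95% Wilson intervals at 6 h ran from 34.0% to 69.3% and from 26.9% to 65.3%. Wilson intervals cover counting error only, and reads without molecular identifiers are not independent molecules.

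Adam12, a metalloprotease that sheds cell-surface proteins, had levels of 5.62% and 9.09% at 0 h (5 of 89 and 4 of 44 reads). At 2 h they were 1.61% and 14.6% (1 of 62 and 7 of 48). At 6 h they were 27.6% and 18.8% (8 of 29 and 6 of 32). Both 6 h libraries were above the others, and the 2 h replicates lay farther apart than the time point means of 0 h and 2 h, 7.35% ± 2.46 and 8.10% ± 9.17. The 6 h mean was 23.2% ± 6.25.

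Rhbdd2, a membrane protein with a rhomboid-like domain, had the least spread at 0 h, with 4.46% and 4.52% (12 of 269 and 8 of 177 reads). Its levels were 13.6% and 11.6% at 2 h (28 of 206 and 16 of 138). They were 33.3% and 14.3% at 6 h (25 of 75 and 13 of 91). No pair of time points overlapped, yet the lower 6 h library was close to the 2 h libraries. The means were 4.49% ± 0.04, 12.6% ± 1.41, and 23.8% ± 13.5, so the level at 2 h was already above that at 0 h.

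Ipo11, an importin that carries cargo into the nucleus, had 21.3% and 12.7% at 0 h (20 of 94 and 7 of 55 reads). It had 15.1% and 10.6% at 2 h (14 of 93 and 5 of 47), and 28.6% and 36.1% at 6 h (8 of 28 and 13 of 36). The 0 h and 2 h libraries overlapped, and those at 6 h were above both. The means were 17.0% ± 6.05, 12.9% ± 3.12, and 32.3% ± 5.33.

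Cers4, a ceramide synthase, had the highest level of the 8 genes at 0 h, 60.7% and 67.9% (17 of 28 and 19 of 28 reads). It had 32.1% and 30.6% at 2 h (9 of 28 and 11 of 36). At 6 h it had 41.2% and 51.9% (7 of 17 and 14 of 27), between the other time points and overlapping neither. The means were 64.3% ± 5.05, 31.3% ± 1.12, and 46.5% ± 7.55. The 6 h mean was thus 15.2 percentage points above the 2 h mean.

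Wdr48, also known as UAF1, is the partner that activates the deubiquitinases USP1, USP12, and USP46. Its site had the most reads over the 6 libraries, with 48.4% and 44.0% at 0 h (108 of 223 and 77 of 175 reads). It had 38.7% and 31.3% at 2 h (122 of 315 and 113 of 361). At 6 h it had 44.6% and 30.5% (90 of 202 and 110 of 361). Here 6 h replicate 1 lay within the 0 h range and 6 h replicate 2 below the 2 h range, so that the 6 h libraries overlapped both other time points. The means were 46.2% ± 3.13, 35.0% ± 5.25, and 37.5% ± 9.96.

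Trio, a signalling protein of axon guidance, had 43.9% and 54.0% at 0 h (36 of 82 and 54 of 100 reads). It had 32.9% and 45.4% at 2 h (24 of 73 and 49 of 108). It had 30.3% and 39.3% at 6 h (36 of 119 and 33 of 84). Only the 0 h and 6 h libraries did not overlap. The means were 49.0% ± 7.14, 39.1% ± 8.83, and 34.8% ± 6.39, and the second replicate was the higher one at each time point.

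Elavl3, also called HuC, is a neuronal RNA-binding protein of the Hu family. It had the lowest level of the 4 falling sites, 12.8% and 22.8% at 0 h (23 of 179 and 52 of 228 reads). It had 12.6% and 16.0% at 2 h (32 of 253 and 44 of 275), and 8.46% and 10.7% at 6 h (11 of 130 and 17 of 159). The 0 h and 2 h libraries overlapped, and both 6 h libraries were below all others. The means were 17.8% ± 7.04, 14.3% ± 2.37, and 9.58% ± 1.58.

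**Figure D1:**
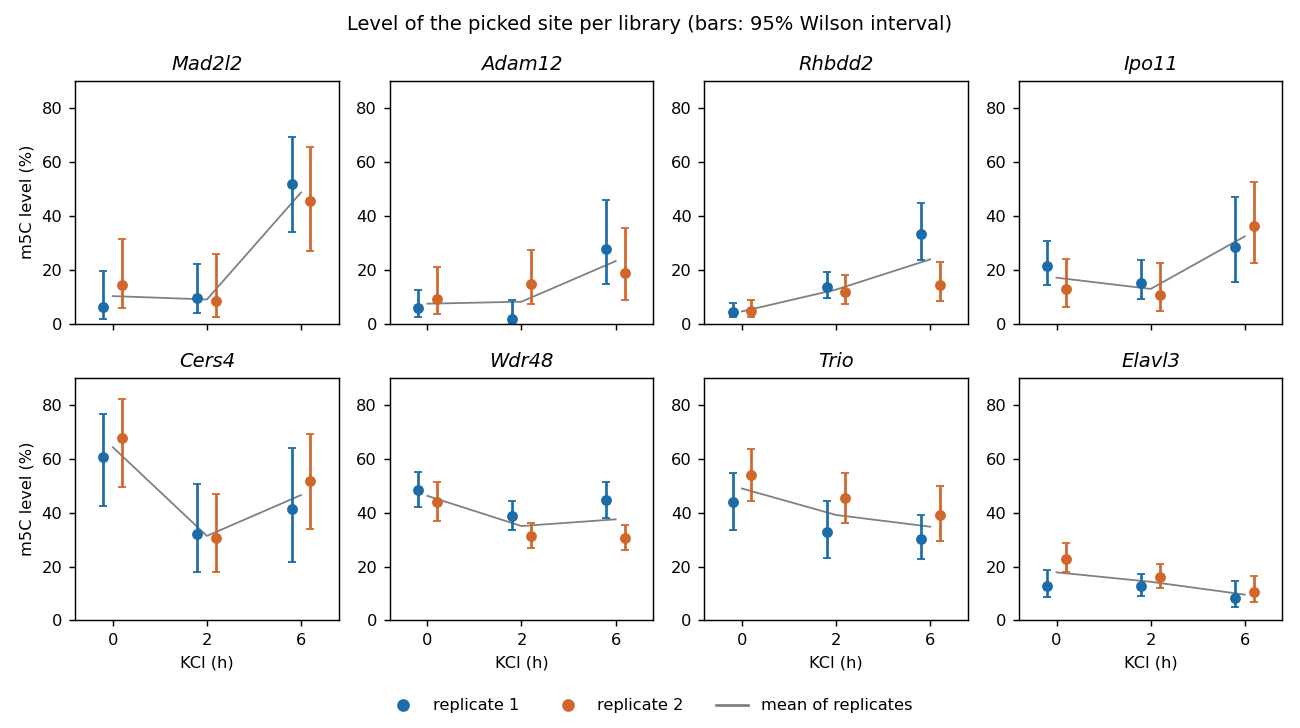
m5C level (%) of the picked site of each gene against hours of KCl, with a point per library, bars for the 95% Wilson interval of that library, and a grey line through the means of 2 replicates. Both 6 h points of Mad2l2 (51.9% and 45.5%) lie above its other points, whereas the 6 h points of Wdr48 (44.6% and 30.5%) straddle those at 2 h.

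These time courses chose the genes, so no test between time points was made at the picked sites. Between 0 h and 6 h, 7 of the 8 sites had libraries that did not overlap, all but Wdr48, and over 908 tested positions outside mitochondrial transcripts the share was 42.0%. Between 0 h and 2 h, 3 sites did not overlap (Rhbdd2, Cers4, and Wdr48), with 49.9% over all such positions. In 2 h vs. 6 h, 6 sites did not overlap, all but Wdr48 and Trio, with 44.4% over all such positions. Nothing is read from these counts, since the rule used the same levels.

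The standard filter of the study asked for 20 or more reads, a level of 10% or more, and 6 or more methylated reads. Wdr48 and Trio passed it in both replicates of all time points. Mad2l2 and Adam12 passed in both replicates only at 6 h, so their presence in the series rested on that time point. Rhbdd2 passed at 2 h and 6 h, and Ipo11 at 0 h and 6 h. Cers4 passed at 0 h and 2 h and was short at 6 h through the 17 reads of replicate 1. Elavl3 passed at 0 h and 2 h and was short at 6 h through the 8.46% of replicate 1. At 0 h the Mad2l2 site had 14.3% in replicate 2 from 4 methylated reads, short of the read minimum.

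Replicates of the same time point were compared as well. The high-confidence list asked for a site in both replicates, so agreement of replicates entered the choice of sites, and nothing is read from sites that were not separated. With a two-sided Fisher's exact test and Benjamini-Hochberg adjustment over all positions tested, no picked site was separated between replicates at 0 h or 2 h. The background was 0.506% of 1780 positions at 0 h and 6.29% of 1797 at 2 h. Unadjusted, Elavl3 at 0 h (p = 0.0102, exact) and Adam12 at 2 h (p = 0.0203, exact) were under 0.05. At 6 h, 2 of the 8 sites were separated, against 33.5% of 1786 positions, or 6.67% of 944 outside mitochondrial transcripts. Rhbdd2 was 19.1 percentage points lower in replicate 2 than in replicate 1 (adjusted p = 0.0184, Fisher's exact test). Wdr48 was 14.1 points lower in replicate 2 (adjusted p = 0.00441, Fisher's exact test). In both, replicate 1 at 6 h was the higher, and this was the library with the highest unconverted share, 0.115% against 0.0869% in replicate 2. The part of conversion in these gaps was not tested. The other 6 sites were not separated at 6 h, where coverage was 17 to 159 reads.

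Neighbouring cytosines within 50 bases on either side carried little unconverted signal. The window around Mad2l2 held 25 other cytosines, of which 3 were listed, each in 1 library, with 1 or 2 methylated reads and at most 5.71%. Around Adam12, 4 of 31 were listed. The strongest, 22 bases to the 5′ side, had 4 of 30 reads (13.3%) in 6 h replicate 2 and was not listed elsewhere. Around Cers4, 2 of 31 were listed, with at most 5.08%, and around Ipo11, 1 of 19 in a window of 72 bases, with 1.05%.

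Deeper sites had more listed neighbours at low levels. Around Rhbdd2, 19 of 37 were listed, with at most 3.39% (10 of 295 reads), 11 bases to the 5′ side in 2 h replicate 2. Around Wdr48, 15 of 35 were listed, with at most 1.81%, and around Trio, 15 of 44, with at most 3.45%. All 34 around Elavl3 were listed in some library, with 1 to 5 methylated reads each and at most 3.03%. None of these neighbours passed the standard filter in any library. Within these windows no cytosine other than the picked one was thus past the filter, at any time point.

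**Figure D2:**
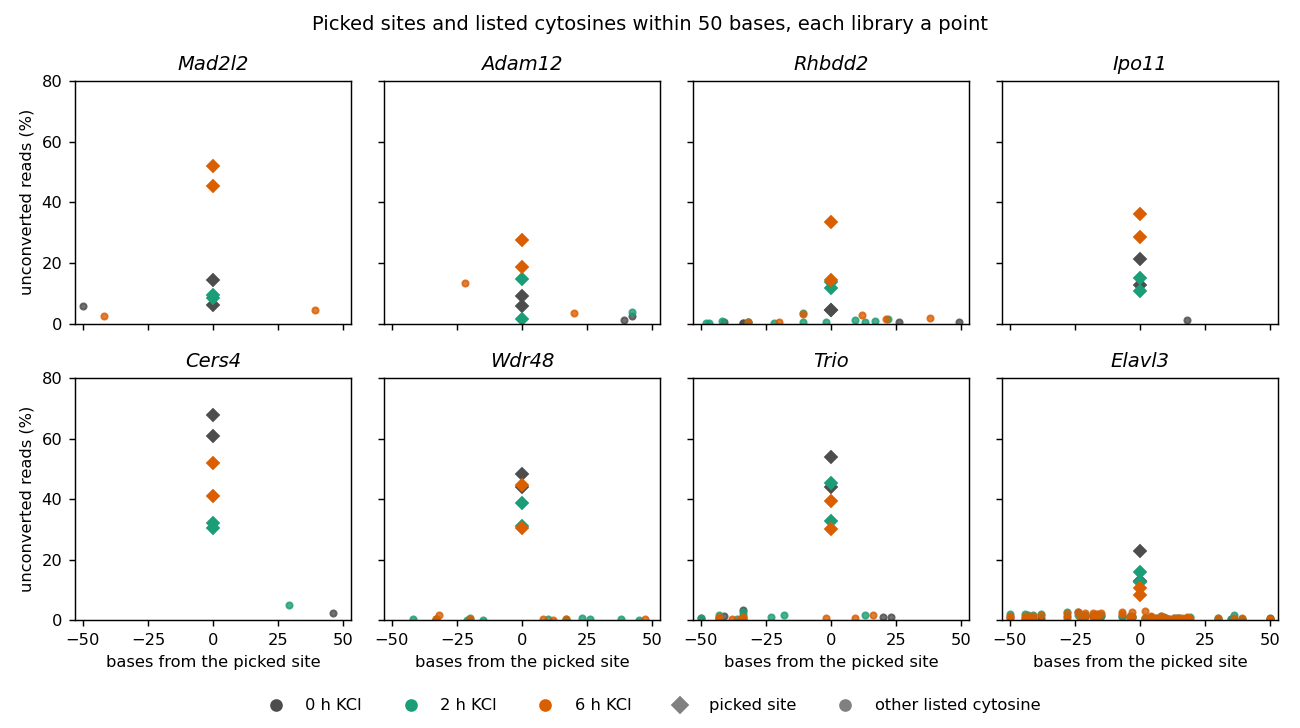
Share of unconverted reads (%) at the picked site (diamonds) and at the listed cytosines within 50 bases (small points) against distance in bases along the transcript, with a point per library and colors for hours of KCl. The highest neighbour is the 13.3% point of Adam12 at 6 h, and the other neighbours stay at or below 5.71%.

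Coverage changed abruptly at the Elavl3 site. In 2 h replicate 1 the site had 253 reads, the nearest listed cytosine on the 3′ side, 2 bases away, had 257, and the nearest on the 5′ side, 3 bases away, had 125. The 5′ neighbour at 3 bases was listed in 5 libraries and had 0.342 to 0.635 times the coverage of the site. The nearest 3′ neighbour, 2 or 4 bases away, had 1.01 to 1.06 times its coverage in all 6 libraries. Coverage thus stepped within 3 bases of the site in these 5 libraries. Whether the unconverted bases lay in reads that ended there was not tested, since single reads were not used here. At Wdr48, where neighbours on both sides were listed in 4 libraries, the nearest had 0.981 to 1.23 times the coverage of the site. Near the Rhbdd2 site the 3′ neighbours had 0.758 to 1.23 times and the 5′ neighbours 1.04 to 2.51 times its coverage, at distances of 2 to 49 bases.

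Of the other cytosines of the 8 genes, 9 passed the standard filter in both replicates of at least 1 time point. Of these, 8 passed at all 3 time points, and the counts of calls are over these 8. They lay in the 3′ UTR of Mad2l2 at chr4:148145456-148145459 and chr4:148145469-148145472, 46 to 62 bases after the CDS end. They form a pair of CCCC runs, each after GGGG, shown here because the whole second pattern of Mad2l2 lies in it. The stretch is on the + strand of GRCm38 with the 8 cytosines in capitals.
Mad2l2 3′ UTR, chr4:148145450-148145479: acggggCCCCagcccggggCCCCagactcc

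These 8 cytosines lie within 17 bases and share reads, so they count as 1 place rather than 8 observations. RNAfold gave each a pairing probability of 0.976 to 0.999 at 70 °C, against 0.05 for the picked site in the 5′ UTR of the same gene. None of the 8 was on the list of high-confidence sites. The study left out reads with more than 3 unconverted cytosines and positions in predicted structures, and neither filter was repeated here. The values of this stretch are therefore given as unconverted shares and not as m5C. The mean of the 8 shares was 58.2% and 60.3% at 0 h, 40.6% and 46.0% after 2 h of KCl, and 44.7% and 58.6% after 6 h. The 2 h libraries were below those at 0 h, and the 6 h libraries spanned from near the 2 h values to near the 0 h values. Coverage ranged from 92 to 143 reads at 0 h, whereas the 2 h libraries had 82 to 140 and the 6 h libraries 55 to 77. The fourth C of the first run was the lowest in all 6 libraries, 12.9% to 32.9%.

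In 0 h vs. 2 h, 7 of the 8 were lower at 2 h by Fisher's exact test on reads summed over replicates. Over all 1765 positions 16.5% were called, and 3.46% were called lower. The first C, at chr4:148145456, had 58.0% and 65.0% at 0 h and 38.6% and 43.0% at 2 h, a fall of 20.7 percentage points in the mean (adjusted p = 3.18e-05, Fisher's exact test). The fourth had 26.3% and 30.2% at 0 h and 12.9% and 26.5% at 2 h (adjusted p = 0.0868). In 0 h vs. 6 h, 0 of the 8 were called by Fisher's exact test, against 12.7% of 1750 positions, and 0 were under 0.05 unadjusted (the smallest was p = 0.0900). In 2 h vs. 6 h, 1 was called, again the first C, against 23.3% of 1768. It was 13.9 points higher at 6 h (adjusted p = 0.0348, Fisher's exact test), with 48.05% in 6 h replicate 1 and 61.33% in 6 h replicate 2. Summed reads leave out the spread between replicates. limma on log2 of methylated over unmethylated reads, which holds that spread, called 0 positions in any comparison, of the 8 or of all. Unadjusted, 1, 0, and 0 of the 8 were under 0.05 by limma. In 0 h vs. 2 h, 2 of the 8 were called without 2 h replicate 1, and 4 without 0 h replicate 2.

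**Figure D3:**
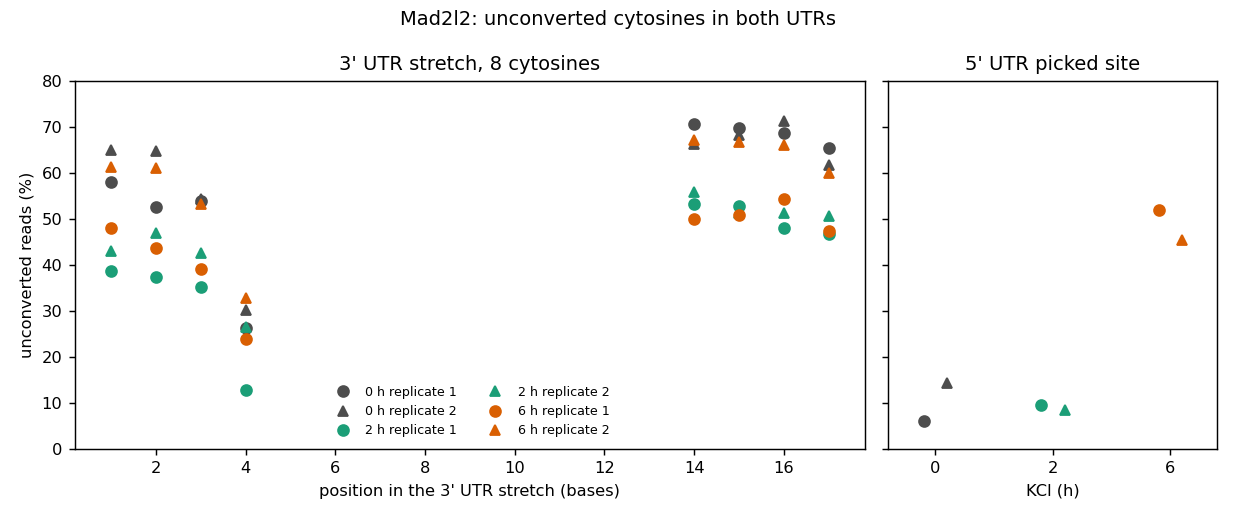
Share of unconverted reads (%) in Mad2l2, with the 8 cytosines of the 3′ UTR stretch by position in the stretch on the left and the picked 5′ UTR site by hours of KCl on the right, with a point per library. The 3′ UTR cytosines average 58.2% and 60.3% at 0 h and 40.6% and 46.0% at 2 h, whereas the 5′ UTR site is high at 6 h (51.9% and 45.5%).

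The remaining position was in Elavl3 at chr9:22023633 on the − strand, in the 3′ UTR of 1 of its 3 GENCODE M21 transcripts. It had 9.30% and 16.2% at 0 h, 17.8% and 17.7% after 2 h of KCl, and 19.4% and 4.94% after 6 h. It passed the filter in both replicates only at 2 h, where its mean was highest, so it entered through that time point and was left out of the counts of calls. Its pairing probability was 0.949, and the 6 h libraries lay on both sides of the rest.

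Most listings of 7 of the genes were single unconverted reads. Counting every listed cytosine, those described above included, Trio had the most, 2577 in any library, then Elavl3 with 1494, Wdr48 with 757, Ipo11 with 596, Rhbdd2 with 579, Cers4 with 458, Mad2l2 with 194, and Adam12 with 132. Between 47.8% (Elavl3) and 83.1% (Rhbdd2) of the listings of a gene had 1 methylated read. The median level of a listing was 0.19% in Trio and 3.7% in Adam12, the gene with the shallowest listings. No cytosine of the opposite strand was listed in any of the 8. Intronic positions were 0 in Adam12 and Rhbdd2 and up to 13.4% of those listed, in Mad2l2.

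Coverage of the picked site, scaled between libraries so that the median gene was equal, was lower at 6 h than at 0 h at most sites. It is given with no test, since these reads are the denominator of the levels that chose the genes. Rhbdd2 had 256.8 and 205.5 scaled reads at 0 h, 179.9 and 144.9 after 2 h of KCl, and 77.7 and 86.5 after 6 h, so the 6 h mean was 0.355 times that at 0 h. Ipo11 had 89.7 and 63.9 at 0 h, 81.2 and 49.3 after 2 h of KCl, and 29.0 and 34.2 after 6 h, a ratio of 0.411. Adam12 had 85.0 and 51.1 at 0 h, 54.1 and 50.4 after 2 h of KCl, and 30.0 and 30.4 after 6 h, a ratio of 0.444. For these genes both 6 h libraries lay below all others.

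Mad2l2, with 31.5 and 32.5 scaled reads at 0 h and 28.0 and 20.9 at 6 h, had a ratio of 0.763. Cers4 had 26.7 and 32.5 at 0 h and 17.6 and 25.7 at 6 h, a ratio of 0.73. Elavl3 had 170.9 and 264.7 at 0 h and 134.6 and 151.1 at 6 h, a ratio of 0.656. Wdr48 (1.33) and Trio (1.04) did not have lower means at 6 h. Both 6 h libraries were thus below both 0 h libraries at 6 of 8 sites, 4 late and 2 falling, and this held for 29.4% of the 908 positions outside mitochondrial transcripts. All 4 late-rising sites, and Cers4 and Elavl3 among the falling sites, had their lowest mean coverage at 6 h. At 6 h the level was highest at the late-rising sites and lowest at the Elavl3 site. The part of coverage in these levels was not tested.

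**Figure D4:**
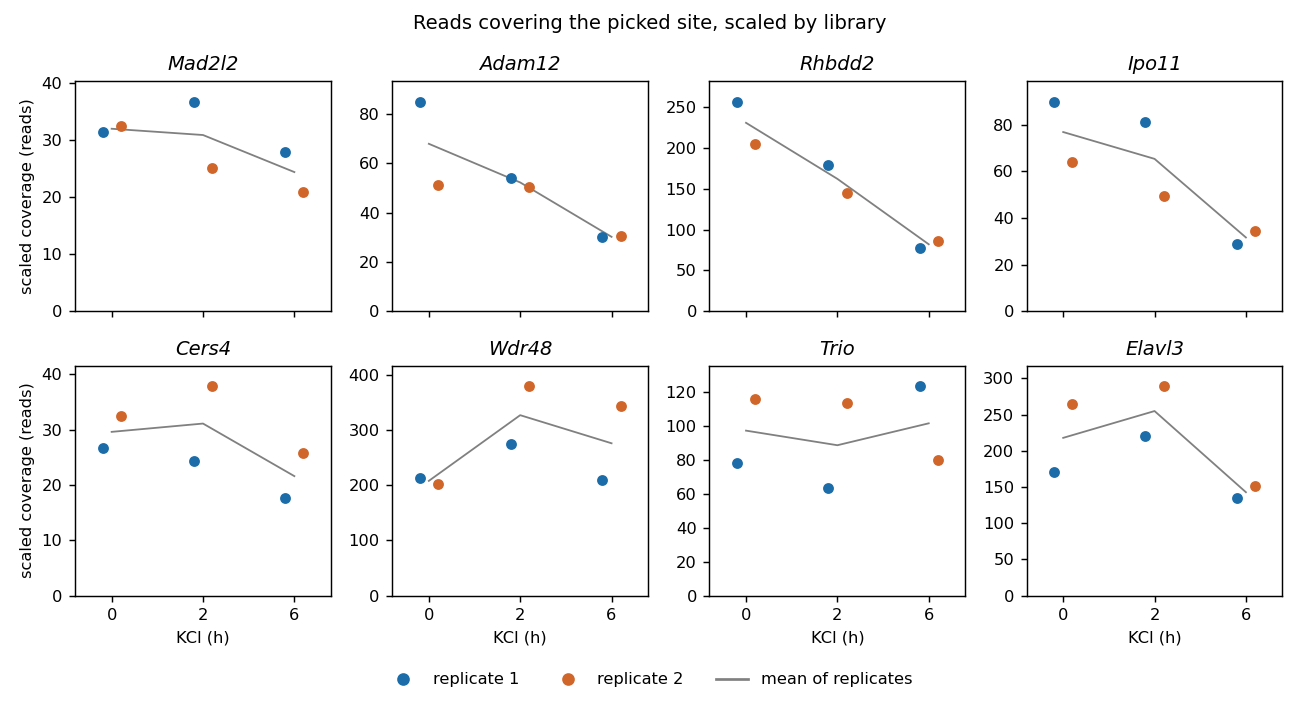
Reads covering the picked site, scaled by library, against hours of KCl, with a point per library and a grey line through the means of 2 replicates. The 6 h points of Rhbdd2 (77.7 and 86.5) lie below its 0 h points (256.8 and 205.5), whereas those of Trio (123.2 and 79.8) lie about its 0 h points (78.3 and 116.1).

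Coverage of the rest of a gene was tested with limma on the median of cytosines listed in all 6 libraries, positions past the filter left out. At least 5 such cytosines were present only in Wdr48 (11), Trio (42), and Elavl3 (143). In bulk RNA, fewer cells of a type and less RNA per cell cannot be told apart. Trio had 1086.0 and 903.3 scaled reads at 0 h, 1266.2 and 1216.9 after 2 h of KCl, and 1466.5 and 1362.8 after 6 h, with every 6 h library above every other. It rose by 0.51 ± 0.11 (SE) on the log2 scale in 0 h vs. 6 h (adjusted p = 0.00549, limma), 1.43-fold. Elavl3 had 2421.3 and 2448.7 at 0 h and 2690.7 and 2833.9 at 6 h, a rise of 0.18 ± 0.06 (adjusted p = 0.0457, limma). Wdr48 had 1229.7 and 1245.8 at 0 h and 1087.5 and 1046.9 at 6 h. It fell by 0.21 on the log2 scale (SE 0.08, adjusted p = 0.0443, limma).

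All 3 were thus called in 0 h vs. 6 h, where 58.0% of 2549 genes were. The calls of Elavl3 and Wdr48 were lost without any single library of the 4 (adjusted p of 0.0954 to 0.244, limma). With the replicate number as a block they had an adjusted p of 0.0665 and 0.0613. None of the 3 was called in 0 h vs. 2 h (22.6% of all genes) or 2 h vs. 6 h (46.9%). Trio, at 0.33 ± 0.11 (SE) in 0 h vs. 2 h (adjusted p = 0.0658, limma), was called there with the replicate block (adjusted p = 0.047), with the mean in place of the median (0.0356), and with every shared cytosine (0.0384). In Trio and Elavl3 coverage of other cytosines was therefore higher at 6 h while the level of the picked site was lower. In Elavl3 the picked site had 0.656 times the scaled reads of 0 h, against 1.13-fold over the 143 other cytosines.

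In the other 5 genes fewer such cytosines were shared, so their coverage is given with no test, over every cytosine listed in all 6 libraries, a set chosen after the data were seen. The 9 cytosines of Mad2l2 were the picked site and the 3′ UTR stretch. They had 94.4 and 146.1 scaled reads at 0 h, 93.5 and 94.2 after 2 h of KCl, and 59.7 and 60.5 after 6 h, with both 6 h libraries below all others. Ipo11, with 3 cytosines, the picked site among them, had 435.7 and 295.7 at 0 h, 464.1 and 523.0 after 2 h of KCl, and 281.6 and 329.1 after 6 h. Its 0 h and 6 h libraries overlapped, and those at 2 h were above both. Adam12, Rhbdd2, and Cers4 had only the picked site listed throughout.

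Coverage was also read in 52 related genes, partners and family members of the 8. Of these, 50 were listed, 13 had enough shared cytosines for the fit, and 0 had a cytosine that passed the standard filter in both replicates of a time point. Only 1 of the 13 was called in 0 h vs. 2 h, upward, beside 22.6% of all genes. Sptlc2, a subunit of the enzyme that opens sphingolipid synthesis, had 747.6 and 876.6 scaled reads at 0 h and 1233.9 and 1137.1 at 2 h, a rise of 0.55 ± 0.10 (SE) on the log2 scale (adjusted p = 0.0109, limma). Then 2 rose and 2 fell in 0 h vs. 6 h, beside 58.0% of all genes called. The importin Ipo5 had 1921.5 and 1989.5 at 0 h and 2361.9 and 2514.2 at 6 h. It rose by 0.32 ± 0.07 (adjusted p = 0.00692, limma). Fzr1, an activator of the anaphase-promoting complex, had 1134.3 and 1082.1 at 0 h and 884.5 and 856.9 at 6 h. It fell by 0.35 on the log2 scale (adjusted p = 0.0131, limma). Sptlc2 was still above 0 h at 6 h, by 0.28 (adjusted p = 0.0486, limma).

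In 2 h vs. 6 h, again 2 rose and 2 fell, beside 46.9% of all genes called. Ipo5 rose by 0.32 (adjusted p = 0.00869, limma), and Fzr1 fell by 0.31 on the log2 scale (adjusted p = 0.0274, limma). The transportin Tnpo3 had 1117.7 and 1093.5 scaled reads at 2 h and 949.2 and 923.4 at 6 h and fell by 0.24 on the log2 scale (adjusted p = 0.0429, limma). The median change of the 13 genes was −0.031, 0.026, and −0.007 on the log2 scale in the 3 comparisons, beside medians over all genes of −0.004, 0.006, and −0.025.

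The positions outside the 8 genes with the most similar profile were sought by Pearson's r over the 6 library levels among 620 candidates, as a description. Closest to the mean of the 4 late-rising sites were positions in Tgfa (r = 0.909), 1500035N22Rik (r = 0.909), and Ywhag (r = 0.893). The Tgfa position, chr6:86274936, had 4.95% and 8.43% at 0 h, 4.76% and 2.47% after 2 h of KCl, and 16.7% and 11.4% after 6 h. The one in 1500035N22Rik, chr5:24997502, had 21.8% and 23.4% at 0 h, 31.5% and 22.6% after 2 h of KCl, and 41.4% and 38.7% after 6 h. That in Ywhag, chr5:135910598, had 2.73% and 3.12% at 0 h, 7.48% and 8.18% after 2 h of KCl, and 15.8% and 10.7% after 6 h. None of them reached the 6 h mean of Mad2l2, 48.7%.

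Closest to the mean of the 4 falling sites were positions in 4933436I20Rik (r = 0.937), Gas7 (r = 0.913), and mt-Nd4 (r = 0.833). The 4933436I20Rik position, chr1:83738872, had 22.7% and 24.2% at 0 h, 10.3% and 12.5% after 2 h of KCl, and 16.4% and 12.7% after 6 h. The Gas7 position, chr11:67455542, had 24.1% and 32.1% at 0 h, 9.43% and 18.8% after 2 h of KCl, and 19.5% and 17.3% after 6 h. As in Cers4 and Wdr48, these had their lowest mean at 2 h rather than 6 h, whereas Trio and Elavl3 had theirs at 6 h. Points of 1 library share its depth and conversion, and the r values carry no test, since the profiles were searched for among 620 candidates.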

How the data were processed

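Poly(A) RNA of 6 libraries was bisulfite-converted and sequenced. After trimming, the authors mapped the reads to GRCm38 (meRanTK) and listed cytosines with its caller, meRanCall. The deposited lists give per position read counts (coverage, unconverted C, and reads with another base), not normalized, and, as a fraction, the level (C over C plus T). At every listed position the level was within 0.001 of that share. The submitters' processing notes name R 4.1.1. The filters that need single reads were not repeated here, and the picked sites are those of the study's own list of high-confidence sites, used for their positions only.

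Groups came from the sample titles. The 8 genes and all lists were chosen with earlier results of these data known. Positions passing the standard filter in both replicates of a time point entered Fisher's exact test if listed in all compared libraries. They thus had 10 or more reads and at least 1 unconverted read in each. Positions fully converted in a compared library were left out. The test was two-sided on reads summed over replicates, and p-values were adjusted after Benjamini-Hochberg, with a threshold of 0.05. Gene coverage was log2 of the median over shared cytosines, scaled per library, and was fitted with limma over all 6 libraries with a trended prior. Genes were named by rule: the 8 members, their filtered positions, at most 3 related genes by adjusted p in each comparison, and the 3 most alike positions per profile (coverage of at least 20, range of means of at least 10 points). Pairing used RNAfold 2.7.2 on 75 bases to each side, and segments came from GENCODE M21. On simulated data for 0 h vs. 2 h, Fisher's exact test recovered 143 of 200 changes of 15 points over 923 positions with 0 false calls, and 94 false calls arose when replicates varied beyond counting. For coverage in 0 h vs. 6 h, limma recovered 153 of 200 changes of 0.5 on the log2 scale over 2549 genes, with 7 false calls.

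Alternatives were other coverage and cytosine minimums, limma on the log2 ratio (0.5 added), a minimum difference, the study's list, mean coverage, total scaling, a replicate block, summed reads, another denominator, and leaving out each library. Python 3.11.15, pandas 2.3.3, scipy 1.17.1, statsmodels 0.14.6, R 4.3.3, and limma 3.58.1 were used.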

Additional observations from a re-analysis of the deposited data

How the results depend on the processing

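The choice of sites fixed the direction of the level differences in 0 h vs. 6 h, so only their sizes are given. On leaving out 1 library they ran from 34.37 to 42.59 points at Mad2l2, 11.40 to 20.23 at Adam12, 9.80 to 28.84 at Rhbdd2, 11.06 to 19.61 at Ipo11, −23.11 to −12.43 at Cers4, −15.74 to −1.66 at Wdr48 (−1.66 without 6 h replicate 2), −19.23 to −9.13 at Trio, and −13.23 to −3.27 at Elavl3. In the other comparisons 9 values turned, all on leaving out 1 library. In 0 h vs. 2 h the differences then ran from −5.36 to 2.87 points at Mad2l2, −5.74 to 7.23 at Adam12, −8.43 to 0.12 at Ipo11, and −8.48 to 1.47 at Elavl3. In 2 h vs. 6 h they ran from −4.55 to 9.54 at Wdr48 and −10.60 to 1.89 at Trio, and from 1.69 to 20.74 at Rhbdd2, with no turn.

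By limma on the log2 ratio 0 positions were called in each comparison, where Fisher's exact test called 292 in 0 h vs. 2 h, 222 in 0 h vs. 6 h, and 412 in 2 h vs. 6 h. Unadjusted, 156, 85, and 127 were under 0.05 by limma. Of the 7, 0, and 1 other positions of the 8 genes, limma called 0 in each. With a difference of at least 10 points, 156, 111, and 258 were called. Leaving out 1 library gave 188 to 290, 157 to 540, and 308 to 626 positions, with the most, 540 and 626, without 6 h replicate 2, and 2 to 7, 0 to 1, and 0 to 2 of the other positions of the 8 genes. Over the study's list, 194 were called in 2 h vs. 6 h, and 3, 5, and 21 were separated between replicates of the 3 time points, where 9, 113, and 599 were separated over all positions. With at least 20 shared cytosines per gene, 323, 890, and 690 genes changed in coverage, against 576, 1478, and 1195. With every shared cytosine, chosen after seeing the data, 1141, 2710, and 2406 did. Leaving out 1 library gave 213 to 761, 1010 to 1131, and 677 to 1363. The cause of these shifts was not tested. Some of these settings also changed the number of genes or libraries compared. Trio in 0 h vs. 2 h passed with the mean in place of the median (adjusted p = 0.0356, limma), and Elavl3 in 0 h vs. 6 h did not with total scaling (adjusted p = 0.108, limma) or at least 20 cytosines (adjusted p = 0.0842, limma).

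The replicate numbers were not taken to pair the samples, since the labels tie them to no shared culture and the check was mixed. Deviations of same-numbered libraries correlated at 0.0877, −0.0071, and −0.121 for levels and at 0.435, −0.207, and −0.248 for coverage. With the replicate block, 266, 246, and 492 positions were called by the Cochran-Mantel-Haenszel test, as were 7, 0, and 1 of the 8 other positions of the 8 genes, and 550, 1479, and 1159 genes by limma. Trio in 0 h vs. 2 h was called with the block (adjusted p = 0.047, limma). Crossed numbers, added after seeing the data, gave 310 positions in 2 h vs. 6 h and 1579 genes in 0 h vs. 6 h and 1310 in 2 h vs. 6 h. Depth limits the picked sites of Mad2l2, Adam12, Ipo11, and Cers4 most, with 17 to 36 reads in each 6 h library.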
